A study of Homo sapiens with 17 samples.

Results

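Quiescence is a reversible exit from the cell cycle, and oncogene-induced senescence is a permanent one. The 2 arrests were set side by side in one human fibroblast line, gene by gene, as the change in quiescence minus the change in senescence, in transcript levels (RNA-Seq), in ribosome footprints (Ribo-Seq) and in their ratio, the translation efficiency (TE). All groups were BJ foreskin fibroblasts immortalized with hTERT, the catalytic subunit of telomerase, and grown with 10% heat-inactivated fetal calf serum. Quiescent cells (Q) had been depleted of serum. Senescent cells (S) expressed hTERT and a tamoxifen-inducible RASG12V, the oncogenic form of a RAS GTPase, and had been kept in 1e-07 M 4-OHT-tamoxifen for 14 days. Each arrest was set against the proliferating control of its own sequencing run, C12 for Q and C3 for S, both in normal conditions. Pre-senescent cells (preS, the same construct after 5 days of 4-OHT-tamoxifen) and transformed cells (Tr, hTERT cells with p53 and p16INK4A knocked down, SV40 small T and a retroviral RASG12V) serve below only as side values. The comparison used 12 of the 17 samples, held in 8 columns of a table of 9699 transcripts, 1 per gene. The labels do not say whether the proliferating or serum-depleted cells carried the inducible construct, how long serum was withdrawn, or whether C3 had received tamoxifen.

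A quiescent cell has put down its growth programme for want of mitogens and can take it up again when serum returns, whereas a senescent cell stays alive, enlarged and secretory behind a block kept by the p53 and RB tumour suppressors. The block is commonly recognised by the cyclin-dependent kinase inhibitors p21 and p16INK4A, by the loss of lamin B1, by swollen lysosomes, and by the secretion of interleukins, chemokines and matrix proteases known as the senescence-associated secretory phenotype. Serum carries lipids as well as growth factors, and the SREBP transcription factors, which sense membrane sterols, switch on sterol and fatty acid enzymes when these run short. Messages of ribosomal proteins begin with a run of pyrimidines, the 5′ terminal oligopyrimidine (TOP) tract, through which the mTOR kinase governs their translation.

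Each of the 8 columns held a single value per gene: the authors combined 2 libraries into each C12 and Q column, and C3 and S are single libraries. No difference could therefore be set against a spread between replicates, no p-value is given, and "rose" and "fell" mean a change past 2-fold, that is 1 on the log2 scale. Values are FPKM, fragments per kilobase of sequence, scaled to the mapped reads of the library, with a floor of 1 set by the authors, so they are shares of a library and carry no read depth. The only yardstick within these values was the pair of proliferating controls: log2 differences between C3 and C12 had a standard deviation across genes of 0.57 in RNA-Seq, 0.79 in Ribo-Seq and 0.55 in TE. This is a spread between runs and does not measure the noise within a run. The standard deviation of Q over C12 was 0.52, 0.75 and 0.50 in the same order, smaller than between the controls. Past 2-fold in either direction were 5.47%, 15.1% and 5.09% of genes in Q over C12. In C3 over C12 they were 6.33%, 16.3% and 6.67%. In size, the changes in quiescence as a whole thus did not exceed those between the controls. The authors report that replicates correlated more closely within a run than between runs. Because the runs, and possibly the cultures, differed, S was also read against C12, and where this moved a named gene across 2-fold or a list to another count or order, the value against C12 is given for the cases the text turns on. The authors list the RNA-Seq libraries of C12 and Q as paired-end and those of C3, S and Tr as not. In RNA-Seq and TE, readings of S or C3 against C12 therefore also cross read layouts.

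The labels hold a contradiction that bears on the Ribo-Seq values. The library titled S has a condition entry beginning with Proliferation, and that titled C3 an entry beginning with Senescence. Libraries were grouped by title. Grouped so, the change of each gene in senescence correlated between RNA-Seq and Ribo-Seq with a Pearson r of 0.84 across 7529 genes (genes share libraries and are not replicates, and this is a description). With the condition entries taken instead, the number of genes with a TE change particular to senescence went from 318 to 2524. All 11 fibroblast markers lay above the floor in every column, whereas the 5 endothelial markers, 5 of 8 epithelial markers and 4 of 6 leukocyte markers were not among the table's genes. The epithelial keratins KRT8, KRT18 and KRT19 summed to between 105 and 313 FPKM in RNA-Seq. KRT19 was at 1 FPKM in C12, 1.8 in Q, 39.8 in C3 and 4.43 in S. HRAS transcripts, which may come from the transgene or the endogenous gene, were at 2415 in C12 and 1254 in Q, and 1284 in C3 and 2087 in S FPKM. ESR1, the estrogen receptor that tamoxifen-inducible constructs commonly borrow a domain from, was at 19.2 in C12 and 9.31 in Q, and 102 in C3 and 144 in S, and at 1 in Tr. KRT19 and ESR1 were looked at after their values were seen and both differ between the proliferating controls. A difference between runs, with their read layouts, and one between cultures cannot be told apart here.

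In RNA-Seq, 8093 genes had a mean log2 FPKM over the 4 columns of at least 2, a level that a gene can also reach through the columns where it is high. Of these, 3.23% rose and 2.25% fell in quiescence, and 6.76% rose and 11.4% fell in senescence. Read against C12, 11.2% rose and 16.6% fell in senescence. Across genes the changes in the 2 arrests had a Pearson r of 0.28, a description without a test. A gene past 2-fold in both arrests was called shared or opposite by its directions. It was called particular to one arrest when it passed 2-fold there, stayed below 0.5 in that direction and short of 2-fold the other way in the other arrest, and the changes differed by at least 1. By these rules 198 genes (2.45%) were shared, 105 (1.3%) were particular to quiescence, 699 (8.64%) were particular to senescence and 61 (0.754%) were opposite, and 6440 genes (79.6%) passed 2-fold in neither arrest. The remaining 590 genes fell between the rules.

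The thresholds cut through a continuum. Just inside and just outside 2-fold lay KDELR3 at 1.0010 and HBP1 at 0.9982 among genes higher in quiescence, and PCNA at 2-fold and NOP56 at -0.9995 among those lower. In senescence the neighbours were ALG3 at 1.0005 and ACOT13 at 0.9996, and AFAP1 at 2-fold and C11orf49 at -0.9988.

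**Figure D1:**
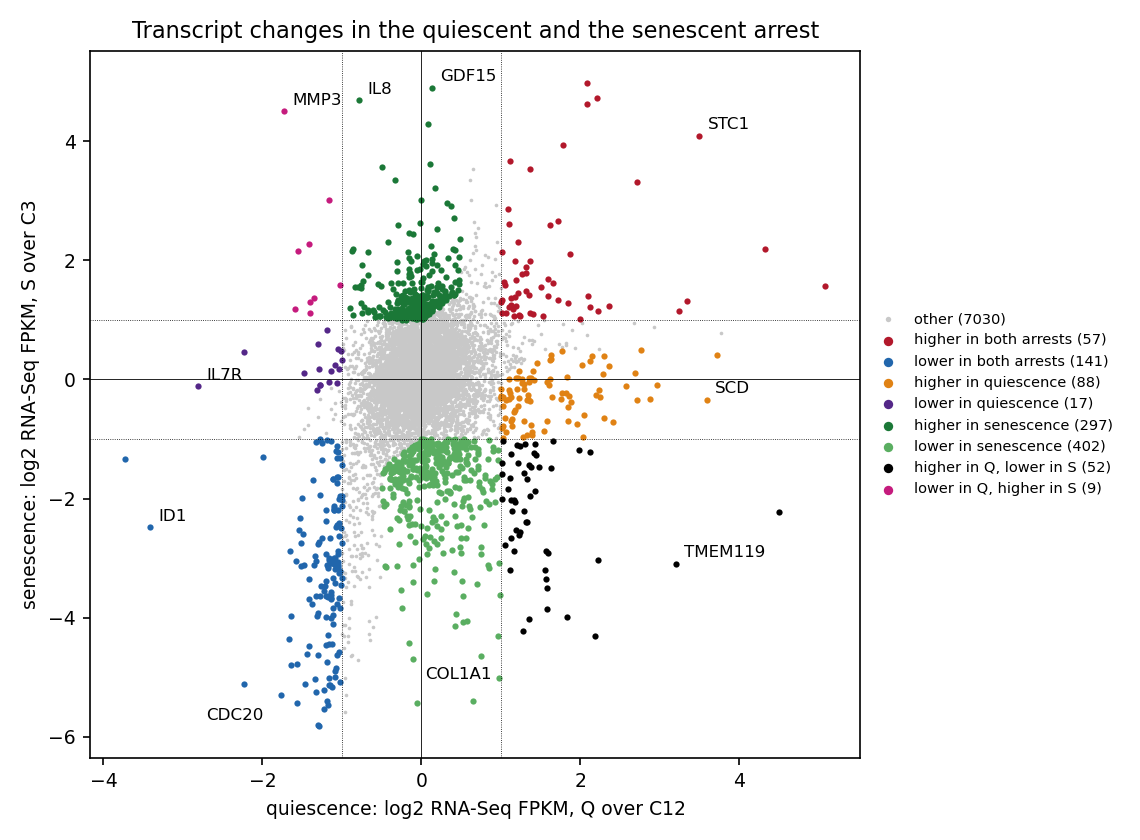
Log2 change of RNA-Seq FPKM in quiescence (Q over C12, horizontal) and in senescence (S over C3, vertical), 1 point per gene for 8093 genes, with dotted lines at 2-fold and the class sizes in the key. The 141 genes lower in both arrests run far down the senescence axis, while those higher in quiescence, SCD among them, lie along the horizontal axis.

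The largest common ground of the arrests was the decrease of cell-cycle genes, and it was larger in senescence. Of 141 genes that fell in both (1.74% of genes tested), 137 also fell in both when S was read against C12. Their median change was -1.16 in quiescence and -3.13 in senescence. Among 48 measured mitosis genes, 32 fell in quiescence and 47 in senescence, with medians of -1.12 and -4.11 beside -0.03 and 0.01 for all genes. Of 43 DNA replication genes, 29 fell in quiescence and 41 in senescence, with medians of -1.09 and -2.93. The direction and the order of the arrests did not depend on the control, since the mitosis median was -4.52 against C12.

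CDC20, the activator of the anaphase-promoting complex, had the largest decrease in quiescence of the 48 mitosis genes. Its RNA-Seq FPKM were 215 in C12 and 63.2 in Q, and 86.2 in C3 and 2.19 in S, a 3.403-fold decrease in quiescence and a 39.3-fold decrease in senescence. PLK1, the kinase that drives mitotic entry and spindle assembly, was at 105 in C12 and 35.4 in Q, and 60.6 in C3 and 1.4 in S FPKM. Both messages stayed far above the floor in quiescence and came close to it in senescence. UBE2C, the ubiquitin-conjugating enzyme of the same complex, changed by -1.29 in Q and -5.81 in S on the log2 scale. RRM2, the ribonucleotide reductase subunit that supplies deoxynucleotides, was at 106 in C12 and 42.9 in Q, and 75.9 in C3 and 1.36 in S. MKI67, which encodes the proliferation antigen Ki-67, was at 73.9 in C12 and 32.8 in Q, and 43.97 in C3 and 1 in S, the last value being the floor, so the decrease in senescence was at least 43.97-fold. CCNA2, the cyclin of S phase and G2, fell to 17.5 FPKM from 39.9 in quiescence and to 1.02 from 43.2 in senescence. The replication genes repeated the pattern. MCM10, a factor of replication initiation, was at 12.97 in C12 and 4.36 in Q, and 8.26 in C3 and 1 in S. CDC45, part of the replicative helicase, was at 20.5 in C12 and 8.25 in Q, and 15.7 in C3 and 1 in S. E2F1, the transcription factor released when RB is phosphorylated, was at 37.7 in C12 and 13.5 in Q, and 13.6 in C3 and 2.23 in S FPKM. TK1 and NUSAP1 were just short of 2-fold in quiescence, at -0.97 and -0.96, and fell by far in senescence, at -5.01 and -5.58.

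Promoters of mitosis genes are known to carry the cell-cycle homology region, with the core TTTGAA, often beside a CCAAT box, through which the DREAM repressor and its activating counterparts act. The window searched ran from 250 bases before the annotated start to the 50 bases from the start on, both strands were read, and 8028 of the 9699 genes had a window in the RefSeq promoter table (GRCh38.p14). TTTGAA was present in 27 of 42 mitosis promoters (64.3%), in 37 of 111 promoters of the genes that fell in both arrests (33.3%), in 1 of 38 replication promoters and in 9.54% of all promoters. CCAAT was present in 71.4% of the mitosis promoters and 37.3% of all, but also in 60.5% of the replication and 80% of the cholesterol synthesis promoters. The stretches of 30 bases around the core, shown with TTTGAA in capitals for 3 leading genes that fell in both arrests, were read on the strand of the gene at chr1:43358904-43358933 (plus), chr16:23678848-23678877 (plus) and chr20:31605203-31605232 (plus). A match is a description of letters and not of a bound site.
CDC20: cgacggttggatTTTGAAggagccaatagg
PLK1: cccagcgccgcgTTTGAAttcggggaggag
ID1: ccattggctgctTTTGAAcgttctgagccc

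ID1 and ID3, inhibitors of basic helix-loop-helix transcription factors and classic targets of BMP signalling, were among the exceptions, with larger decreases in quiescence than in senescence. ID1 was at 164 in C12 and 15.5 in Q, and 159.5 in C3 and 28.5 in S FPKM, a 10.6-fold decrease in quiescence against a 5.59-fold decrease in senescence. ID3 was at 145 in C12 and 10.98 in Q, and 116 in C3 and 45.7 in S. ID2 changed by -0.97 in quiescence and -3.33 in senescence. All 4 measured genes of the BMP and ID list fell in senescence and 2 of them in quiescence, although GREM1, a BMP antagonist, was at 0.02 against C12. CXCL12, the chemokine by which stromal cells hold stem cells and lymphocytes, was at 55.1 in C12 and 11.7 in Q, and 34.4 in C3 and 1 in S, the last value being the floor. PKMYT1, an inhibitory kinase of CDK1, was at 34.6 in C12 and 10.9 in Q, and 20.5 in C3 and 1 in S. CDCA3, a trigger of mitotic entry, was at 16.6 in C12 and 5.25 in Q, and 7.4 in C3 and 1 in S, and both are listed at the floor in senescence. CCL2, a monocyte chemokine, was also lower in both, at 55.5 in C12 and 26.97 in Q, and 80.99 in C3 and 15.2 in S.

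The lamina and chromatin genes that mark senescent nuclei separated the arrests by degree. LMNB1, lamin B1, was at 58.3 in C12 and 26 in Q, and 32.3 in C3 and 1 in S FPKM, a 2.24-fold decrease in quiescence and at least a 32.3-fold decrease in senescence. HMGB2, a chromatin protein lost early in senescence, was at 84.8 in C12 and 44.7 in Q, and 68.95 in C3 and 3.5 in S. EZH2, the methyltransferase of Polycomb complex 2, was at 17.6 in C12 and 7.06 in Q, and 13.4 in C3 and 1.62 in S. LBR, the lamin B receptor, was at 19.9 in C12 and 17.1 in Q, and 13.3 in C3 and 2.89 in S, and fell in senescence alone. Of 17 genes in this list 4 fell in quiescence and 10 in senescence, with medians of -0.68 and -1.64, and 1, the variant histone H2AFZ, rose in senescence, with 305 in C12 and 192 in Q, and 308 in C3 and 677 in S.

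Far fewer genes rose in both arrests: 57 (0.704%), of which 49 did so against C12 as well. The median changes were 1.36 in quiescence and 1.49 in senescence. STC1, a secreted glycoprotein hormone, led this group when genes were ranked by the smaller of their changes. Its FPKM were 39.4 in C12 and 445 in Q, and 41.1 in C3 and 700.1 in S, an 11.3-fold increase in quiescence and a 17.03-fold increase in senescence, and it stood at 617 in preS and 609 in Tr. QPRT, an enzyme of NAD synthesis from tryptophan, was at 1.34 in C12 and 8.8 in Q, and 4.72 in C3 and 46.7 in S. IL1B, the inflammatory cytokine interleukin 1 beta, was at 1.22 in C12 and 5.65 in Q, and 3.53 in C3 and 92.8 in S, so it rose past 2-fold in quiescence from a level near the floor. SLC16A6, a monocarboxylate transporter, was at 1.9 in C12 and 8.09 in Q, and 1.38 in C3 and 34.1 in S. MMP1, interstitial collagenase, was abundant throughout at 1289 in C12 and 2808 in Q, and 796 in C3 and 2063 in S, but against C12 its change in senescence was 0.68, short of 2-fold.

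Other genes that rose in both arrests had varied roles. LIPA, the acid lipase that frees cholesterol inside lysosomes, was at 12.8 in C12 and 38.3 in Q, and 56.2 in C3 and 182 in S. NEU1, the lysosomal sialidase, was at 19.3 in C12 and 44.95 in Q, and 21.5 in C3 and 107 in S. WIPI1, which binds phosphoinositides on forming autophagosomes, was at 12.6 in C12 and 45.1 in Q, and 20.8 in C3 and 50.3 in S. PLAT, tissue plasminogen activator, was at 97.4 in C12 and 257 in Q, and 210.0 in C3 and 449 in S. VLDLR, a lipoprotein receptor, and CHAC1, which degrades glutathione under stress, rose by 1.18 and 1.37 in quiescence and by 1.38 and 1.12 in senescence on the log2 scale. CHAC1 changed by 0.54 when S was read against C12.

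In transcripts, lipid synthesis genes rose more in quiescence than in senescence. Of 20 cholesterol synthesis genes measured, 19 rose in quiescence and 6 in senescence, with medians of 2.33 and 0.64, and none fell past 2-fold in either. Against C12, 6 rose and 2 fell in senescence. By the rules above 8 of the 20 were particular to quiescence, 6 were shared and 5 fell between the rules. The cholesterol median was 0.59 in preS and 0.56 in Tr, beside 0.05 and 0.09 for all genes. Of 11 fatty acid synthesis genes, 9 rose in quiescence and 1 in senescence, with medians of 1.83 and 0.03. The list of SREBP factors, their regulators and lipoprotein uptake had 6 of 10 genes higher in quiescence and 1 in senescence. Against C12 the cholesterol median in senescence was 0.75 and the fatty acid median -0.01, so the contrast between the transcript medians did not rest on C3. It was narrower in footprints, where 19 of the 20 cholesterol genes rose in quiescence and 9 in senescence (11 against C12). Their medians were 2.24 and 0.70, and 1.23 in senescence against C12. Of 11 genes of the SREBP and uptake list, 7 rose in quiescence and 4 in senescence (5 against C12), with medians of 1.11 and 0.87. Of 11 fatty acid genes, 8 and 1 rose. In footprints 10.6% of all genes rose in senescence, and 17.5% against C12.

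SCD, the desaturase that makes oleic acid, was at 49.4 in C12 and 595 in Q, and 58.05 in C3 and 45.8 in S FPKM, a 12.1-fold increase in quiescence beside a change of -0.34 on the log2 scale in senescence. HMGCS1, the HMG-CoA synthase of the mevalonate pathway, was at 6.82 in C12 and 93.2 in Q, and 6.91 in C3 and 11.8 in S. It was low in proliferating cells of either run, and passed 2-fold in quiescence and not in senescence. INSIG1, which retains the SREBP escort in the endoplasmic reticulum and is itself a sterol-responsive gene, was at 5.18 in C12 and 68.2 in Q, and 6.89 in C3 and 9.18 in S. FADS2, a desaturase of polyunsaturated fatty acids, was at 47.3 in C12 and 349 in Q, and 68.2 in C3 and 54.5 in S. ACSS2, which makes acetyl-CoA from acetate, was at 10.4 in C12 and 66.8 in Q, and 9.58 in C3 and 10.3 in S. HSD17B7, a sterol ketoreductase, was at 3.33 in C12 and 21.9 in Q, and 6.13 in C3 and 4.8 in S. NPC1, which lets cholesterol out of the lysosome, was the gene of the SREBP and lipoprotein uptake list that rose in senescence, with 28.9 in C12 and 48.5 in Q, and 14.3 in C3 and 48.9 in S, although its change against C12 was 0.76.

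The regulators moved with the enzymes. SREBF1 was at 14.5 in C12 and 36.9 in Q, and 22.1 in C3 and 17.6 in S FPKM and SREBF2 at 19.5 in C12 and 74.8 in Q, and 25.9 in C3 and 37.2 in S, so that SREBF1 rose 2.54-fold and SREBF2 3.83-fold in quiescence, and neither passed 2-fold in senescence. The promoter of SREBF2 carries a sterol regulatory element of the form TCACNCCAC, found in 1.11% of all promoters. It was in none of the 15 cholesterol synthesis, 10 fatty acid synthesis or 67 quiescence-alone promoters read. It is shown in capitals at chr22:41832962-41832991 (plus strand).
SREBF2: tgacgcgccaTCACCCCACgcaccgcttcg

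Some enzymes of the sterol pathway, 6 of the 20, rose in both arrests. TM7SF2, a sterol reductase, was at 1 in C12 and 20.1 in Q, and 1.94 in C3 and 8.89 in S, the first value being the floor. MSMO1, a sterol methyl oxidase, was at 8.46 in C12 and 85.5 in Q, and 16.01 in C3 and 40.04 in S. FDFT1, squalene synthase, was at 46.1 in C12 and 237 in Q, and 56.3 in C3 and 132 in S. DHCR7, which makes cholesterol from its last precursor, was at 22.6 in C12 and 214 in Q, and 28.4 in C3 and 62.6 in S. Each changed more in quiescence than in senescence. LPIN1, a phosphatidate phosphatase, was at 11.7 in C12 and 54.8 in Q, and 13.3 in C3 and 29.4 in S. ACAT2, the thiolase at the head of the pathway, was lower in senescence without reaching 2-fold, at -0.65, and against C12 it fell, at -1.33.

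Outside lipid synthesis, quiescence raised DDIT4, an inhibitor of mTOR complex 1, to 69.1 FPKM from 29.6, while C3 held 8.99 and S 9.94. Against C12 it fell in senescence, at -1.57, and was then opposite. ETV1, an ERK-responsive ETS factor, rose from 5.1 to 17.4 and stood at 4.07 and 3.46 in the other pair. LRRN4CL, a leucine-rich repeat membrane protein, was at 2.49 in C12 and 13.3 in Q, and 3.89 in C3 and 2.36 in S. In all 88 genes (1.09%) rose in quiescence alone by the rule, and 48 of them kept that class with C12 as the control of both.

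Few genes fell in quiescence alone: 17 (0.21%), 10 of them with C12 as control too. IL7R, the interleukin 7 receptor, was at 20.9 in C12 and 2.98 in Q, and 27.8 in C3 and 25.8 in S FPKM, a 6.997-fold decrease in quiescence. EDN1, the vasoconstrictor endothelin 1, was at 7.8 in C12 and 1.66 in Q, and 9.18 in C3 and 12.7 in S. F3, tissue factor, the starter of coagulation, was at 91.8 in C12 and 37.2 in Q, and 99.8 in C3 and 151 in S. CLCF1, a cytokine of the interleukin 6 family, was at 8.73 in C12 and 3.84 in Q, and 6.71 in C3 and 11.8 in S. BIRC2, an inhibitor of apoptosis and regulator of NF-kB, was at 47.2 in C12 and 21.04 in Q, and 33.2 in C3 and 32.1 in S. Other members belong to the nucleolus. EBNA1BP2, a factor of large-subunit assembly, was at 156 in C12 and 63.8 in Q, and 64.4 in C3 and 72.9 in S. BOP1, another, was at 14.8 in C12 and 6.94 in Q, and 5.89 in C3 and 6.94 in S. Both were already low in C3, and against C12 they fell in senescence too, at -1.10 and -1.09. The ribosome biogenesis list as a whole behaved likewise. Of its 58 genes, 56 had negative changes in quiescence (median -0.64) and 35 in senescence (median -0.07), but its median in senescence was -0.65 against C12, and the median of C3 over C12 was -0.61. Whether ribosome biogenesis transcripts separate the arrests therefore depended on the control.

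Senescence raised 297 genes alone (3.67%), 190 of them with C12 as well. Induced RASG12V came together with the arrest in S, so their shares in these changes cannot be told apart here. Of the 297 genes, 262 had positive changes in preS and 220 in Tr, which shares its control C3 with S. Among all 8093 genes 4513 and 4797 did. IL8, the neutrophil chemokine CXCL8, was at 7.14 in C12 and 4.14 in Q, and 4.9 in C3 and 127 in S FPKM, a 25.9-fold increase in senescence, and at 27.97 in preS and 231 in Tr. GDF15, a stress-induced cytokine and p53 target, was at 15.2 in C12 and 16.7 in Q, and 5.47 in C3 and 163 in S. SERPINB2, plasminogen activator inhibitor 2, was at 15.2 in C12 and 10.8 in Q, and 22.9 in C3 and 270.1 in S. SPP1, osteopontin, was at 5.47 in C12 and 4.33 in Q, and 2.23 in C3 and 22.8 in S. CLDN1, a tight-junction protein, was at 10.5 in C12 and 11.2 in Q, and 3.69 in C3 and 72.3 in S. By the rule of the class, none of these 5 could pass 2-fold in quiescence in either direction.

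The secretory genes did not form one block. Of 6 interleukins and chemokines that passed the level filter, 3 rose and 2 fell in senescence, and 1 rose and 3 fell in quiescence. IL6 was at 1 in C12 and 1 in Q, both the floor, and at 1.7 in C3 and 6.99 in S, too low for the filter. IL11 was at 26.7 in C12 and 12.4 in Q, and 9.62 in C3 and 6.09 in S, short of 2-fold in senescence against C3 and at -2.13 against C12. CSF1, the macrophage growth factor, was at 14.98 in C12 and 21.6 in Q, and 12.6 in C3 and 3.07 in S. Known NF-kB targets were among the increases. SOD2, the mitochondrial superoxide dismutase, was at 21.9 in C12 and 24.6 in Q, and 19.99 in C3 and 184 in S. ICAM1, a leukocyte adhesion receptor, was at 7.69 in C12 and 12.1 in Q, and 18.9 in C3 and 218 in S. NFKBIZ, an inducible IkB protein, was at 5.89 in C12 and 3.22 in Q, and 6.28 in C3 and 28.1 in S. Of 11 genes of the NF-kB list, 3 rose in senescence (4 against C12), and 1 rose and 1 fell in quiescence. The proteases and their inhibitors were likewise split. PLAU, urokinase, was at 111 in C12 and 162 in Q, and 70.3 in C3 and 259 in S. TIMP1, an inhibitor of metalloproteases, was at 81.1 in C12 and 102 in Q, and 429.5 in C3 and 144 in S. The change of TIMP1 in senescence was -1.57 against C3 and 0.83 against C12, so its direction turned with the control.

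The letters GGAATTTCC, a form of the NF-kB site, were in 5 of 10 promoters of the interleukin and chemokine list and in 0.498% of all promoters. The matches in IL8, CXCL1 and NFKBIZ are given in capitals, at chr4:73740468-73740497, chr4:73869305-73869334 and chr3:101827758-101827787, all on the plus strand. The list was made of known inflammatory genes, and a list of such genes is not an unbiased sample of promoters. Of the 251 promoters of genes that rose in senescence alone, 3 held the site (1.20%).
IL8: tgcaaatcgtGGAATTTCCtctgacataat
CXCL1: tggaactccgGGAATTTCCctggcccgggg
NFKBIZ: ttttggtctgGGAATTTCCagtgtgcagaa

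The p53 targets rose mainly in senescence. Of 23 measured, 11 rose and 1 fell in senescence (median 0.78, and 1.16 against C12), whereas 2 rose and 1 fell in quiescence (median 0.18). The median in Tr, where p53 was knocked down, was -0.56. CDKN1A, the kinase inhibitor p21, was at 80.8 in C12 and 129 in Q, and 172 in C3 and 814 in S FPKM, a 4.75-fold increase in senescence and a 1.59-fold difference in quiescence, and at 80.3 in Tr. GADD45A, a DNA damage response gene, was at 94.2 in C12 and 56.8 in Q, and 57.4 in C3 and 179.6 in S. SESN2, sestrin 2, a brake on mTOR complex 1, was at 14.6 in C12 and 27.4 in Q, and 8.24 in C3 and 16.7 in S, close to 2-fold in both arrests, and PLK3, a stress-responsive kinase, at 10.6 in C12 and 20.03 in Q, and 11.6 in C3 and 29.8 in S. C12orf5, the fructose bisphosphatase TIGAR, was at 11.3 in C12 and 9.22 in Q, and 16.4 in C3 and 50.4 in S. Against C12 the changes in senescence were 0.93 for GADD45A, 0.20 for SESN2 and 1.5 for PLK3.

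The other kinase inhibitors went different ways. CDKN2A, the locus of p16INK4A and ARF, was at 17.2 in C12 and 30.6 in Q, and 6.75 in C3 and 27.9 in S, that is 1.78-fold in quiescence and 4.14-fold in senescence, but C12 held 17.2 and the change in senescence against it was 0.70. CDKN2C, p18, was at 21.5 in C12 and 11.03 in Q, and 17.4 in C3 and 1 in S, the last value being the floor. Of 8 genes of the kinase inhibitor and RB list 2 rose and 4 fell in senescence and none passed 2-fold in quiescence. CCND1, cyclin D1, was at 378 in C12 and 686 in Q, and 476 in C3 and 1023 in S. Its changes of 0.86 in quiescence and 1.10 in senescence were alike, with only the latter past 2-fold, so it fell between the rules.

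Lysosomal, autophagy and respiratory chain genes were among those that rose in senescence. Of 35 lysosomal genes, 11 rose and 1 fell in senescence and 5 rose in quiescence, with medians of 0.64 and 0.52. GM2A, the activator protein for ganglioside breakdown, was at 21.2 in C12 and 21.1 in Q, and 36.5 in C3 and 295 in S FPKM, an 8.08-fold increase. CTSL1, cathepsin L, was at 68 in C12 and 107 in Q, and 85.6 in C3 and 372 in S. MCOLN1, a lysosomal calcium channel, was at 15.2 in C12 and 13.9 in Q, and 11.4 in C3 and 38.03 in S. Among 22 autophagy genes 5 rose in senescence (8 against C12) and 1 in quiescence. MAP1LC3B, the LC3 protein of autophagosomes, was at 27.4 in C12 and 36.7 in Q, and 36.2 in C3 and 163 in S. SQSTM1, the cargo receptor p62, was at 165 in C12 and 265 in Q, and 108 in C3 and 388 in S. Of 41 respiratory chain genes 7 rose in senescence and none in quiescence, with medians of 0.77 and -0.11. In footprints none of the 41 rose in senescence (median 0.27). TE was lower in 38 of the 41 in senescence (median -0.42, and -0.29 against C12). It was also lower in 34 of them in quiescence (median -0.27). Among all 7406 genes measured in TE, 4010 were lower in senescence and 4210 in quiescence. NDUFA1, a subunit of complex I, was at 54.3 in C12 and 64.4 in Q, and 52.7 in C3 and 120.1 in S. NDUFB3, another, was at 45.8 in C12 and 38.2 in Q, and 36.4 in C3 and 81.5 in S, and 0.83 against C12.

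Senescence alone lowered 402 genes (4.97%), 282 of them with C12 as well, and they included genes by which fibroblasts are known. Of the 402, 353 had negative changes in preS and 286 in Tr, beside 3562 and 3290 of all 8093 genes. Here too RASG12V and the arrest cannot be told apart. COL1A1, the main chain of type I collagen, was at 371 in C12 and 345 in Q, and 1328 in C3 and 51.6 in S FPKM, a 25.8-fold decrease in senescence and a change of -0.10 on the log2 scale in quiescence. Against C12, which held less COL1A1 than C3, the change in senescence was -2.85. PTN, the growth factor pleiotrophin, was at 21.5 in C12 and 33.7 in Q, and 42.3 in C3 and 1 in S. MXRA5, an adhesion proteoglycan, was at 7.82 in C12 and 15.4 in Q, and 32.2 in C3 and 1 in S. EFEMP1, fibulin 3, was at 11.1 in C12 and 10.6 in Q, and 43 in C3 and 1 in S. These 3 genes were at the floor in senescence. PDGFRB, the platelet-derived growth factor receptor beta, was at 36.2 in C12 and 59.02 in Q, and 48.5 in C3 and 4.49 in S. IGFBP3, the carrier of insulin-like growth factors, was at 17.3 in C12 and 10.9 in Q, and 56.6 in C3 and 3.4 in S, and with -0.66 in quiescence it fell between the rules. AEBP1, a matrix protein that binds collagen, was at 33.6 in C12 and 30.1 in Q, and 94.4 in C3 and 4.37 in S. PHGDH, the first enzyme of serine synthesis, was at 156 in C12 and 225 in Q, and 47.5 in C3 and 14.8 in S.

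Of 33 collagens and matrix genes, 22 fell and 1 rose in senescence (14 and 2 against C12), and 3 rose and 2 fell in quiescence. The medians were -1.71 and 0.14. The senescence median was -0.71 against C12, and the median of C3 over C12 was 0.90. Of the 11 fibroblast markers 8 fell in senescence (3 against C12) and 2 rose in quiescence, and their median was -1.64 against C3 and -0.51 against C12. The size of this loss in senescence, unlike that of the mitosis genes, thus varied by more than 1.5 times with the control. The summed RNA-Seq level of the 11 markers was 6235 FPKM in C12, 7623 in Q, 7979 in C3 and 5397 in S. Of 14 TGF-beta and SMAD genes 8 fell and 1 rose in senescence and none passed in quiescence. TGFBI, a matrix protein induced by TGF-beta, was at 6.66 in C12 and 8.83 in Q, and 61.5 in C3 and 6.52 in S, with a change of -3.24 against C3 and -0.03 against C12. In bulk libraries a lower share of cells expressing a gene cannot be told apart from less RNA of it per cell.

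**Figure D2:**
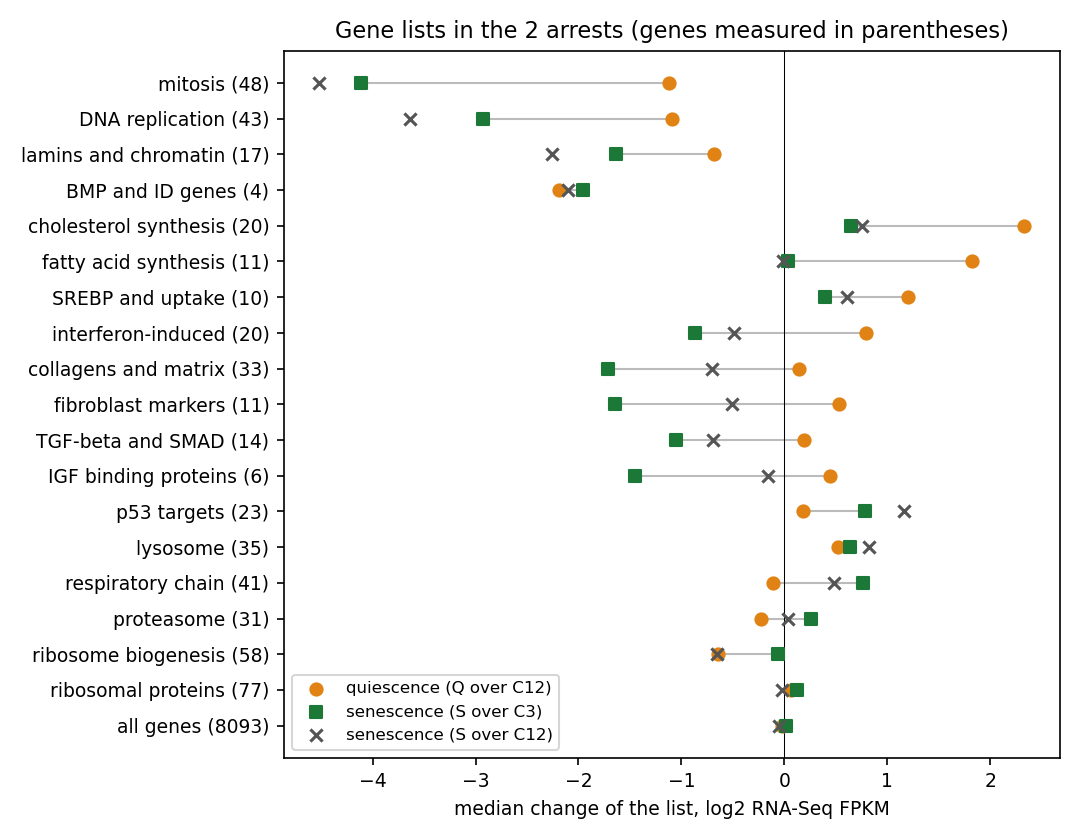
Median log2 change of RNA-Seq FPKM for 18 gene lists and all genes in quiescence (circles, Q over C12), senescence (squares, S over C3) and senescence read against C12 (crosses), with the number of genes measured in parentheses. Mitosis and DNA replication lie far to the left in senescence under either control, cholesterol and fatty acid synthesis to the right in quiescence, and collagens, fibroblast markers and IGF binding proteins shift with the control.

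In opposite directions, 52 genes rose in quiescence and fell in senescence (0.643%), and 9 did the reverse (0.111%). Of the 52, 42 were higher in C3 than in C12 (3486 of all 8093 genes were), 23 of them past 2-fold (3.71% of all genes were), and 32 kept the opposite class with C12 as control. The rule of this class favours genes low in C12 or high in C3, so part of the first 2 counts is built in. TMEM119, an osteoblast and stromal membrane protein, was at 6.86 in C12 and 63.3 in Q, and 19.2 in C3 and 2.25 in S FPKM, a 9.23-fold increase in quiescence and an 8.54-fold decrease in senescence, and fell against C12 too, at -1.61. MFAP4, a protein of elastic fibres, was at 12.7 in C12 and 57.9 in Q, and 30.1 in C3 and 1.53 in S, with -3.05 against C12. GAS1, named for its expression in growth-arrested cells, was at 3.29 in C12 and 9.63 in Q, and 10.2 in C3 and 1.1 in S. DCN, the proteoglycan decorin, was at 27.6 in C12 and 82.6 in Q, and 164 in C3 and 11.3 in S. PDGFRA, the alpha receptor, was at 22.2 in C12 and 58.1 in Q, and 27.9 in C3 and 10.1 in S. These 5 kept their directions past 2-fold with either control.

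CRABP2, which carries retinoic acid, and COLEC12, a scavenger receptor, did not. CRABP2 was at 37.4 in C12 and 133 in Q, and 403 in C3 and 25.5 in S. COLEC12 was at 3.4 in C12 and 15.8 in Q, and 26.2 in C3 and 3.21 in S. Their changes in senescence against C12 were -0.55 and -0.08, short of 2-fold. IGFBP6 was at 72.2 in C12 and 170.5 in Q, and 329.8 in C3 and 55.9 in S, and -0.37 against C12. SERPING1, the C1 inhibitor, was at 1.72 in C12 and 4.38 in Q, and 27.6 in C3 and 10.2 in S, and its direction turned, from -1.44 against C3 to 2.57 against C12. C1S, the complement protease, was at 9.11 in C12 and 21.4 in Q, and 31.8 in C3 and 5.17 in S, and -0.82 against C12.

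Interferon-induced genes parted the arrests. Of 20 measured, 8 rose and none fell in quiescence (median 0.79), while 2 rose and 7 fell in senescence (median -0.87, and -0.49 against C12). PSMB9, a subunit of the immunoproteasome, was at 5.8 in C12 and 12.7 in Q, and 6.36 in C3 and 1 in S FPKM, the last value being the floor. IFI35 was at 12.2 in C12 and 30.7 in Q, and 13.3 in C3 and 2.53 in S. OAS3, a sensor of double-stranded RNA, was at 7.12 in C12 and 16.01 in Q, and 5.57 in C3 and 1.37 in S. The changes of these 3 in senescence against C12 were -2.54, -2.27 and -2.38. Yet IFI6 and ISG15 rose in both, with IFI6 at 48.5 in C12 and 159 in Q, and 37.4 in C3 and 235 in S and ISG15, the ubiquitin-like modifier, at 48.9 in C12 and 118 in Q, and 21.8 in C3 and 74.1 in S. Against C12 ISG15 changed by 0.60 in senescence, short of 2-fold, and 1 of the 20 rose and 8 fell.

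The 9 genes that fell in quiescence and rose in senescence included several secreted factors. MMP3, stromelysin 1, was at 399 in C12 and 120.0 in Q, and 43.4 in C3 and 982 in S FPKM, a 3.32-fold decrease and a 22.6-fold increase. Against C12, which held far more MMP3 than C3, the increase in senescence was 2.46-fold. CXCL1, a neutrophil chemokine, was at 2.66 in C12 and 1 in Q, and 6.65 in C3 and 32.3 in S, the second value being the floor. BDNF, a neurotrophin, was at 25.4 in C12 and 8.41 in Q, and 14.2 in C3 and 32.3 in S. PLK2, a p53-responsive kinase, was at 19.2 in C12 and 7.25 in Q, and 12.4 in C3 and 30.4 in S. Against C12 the last 2 changed by 0.35 and 0.67 in senescence, short of 2-fold. TERT was at 9.91 in C12 and 3.39 in Q, and 4.29 in C3 and 19.1 in S, with 0.95 in senescence against C12, and these reads may include the transgene.

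**Figure D3:**
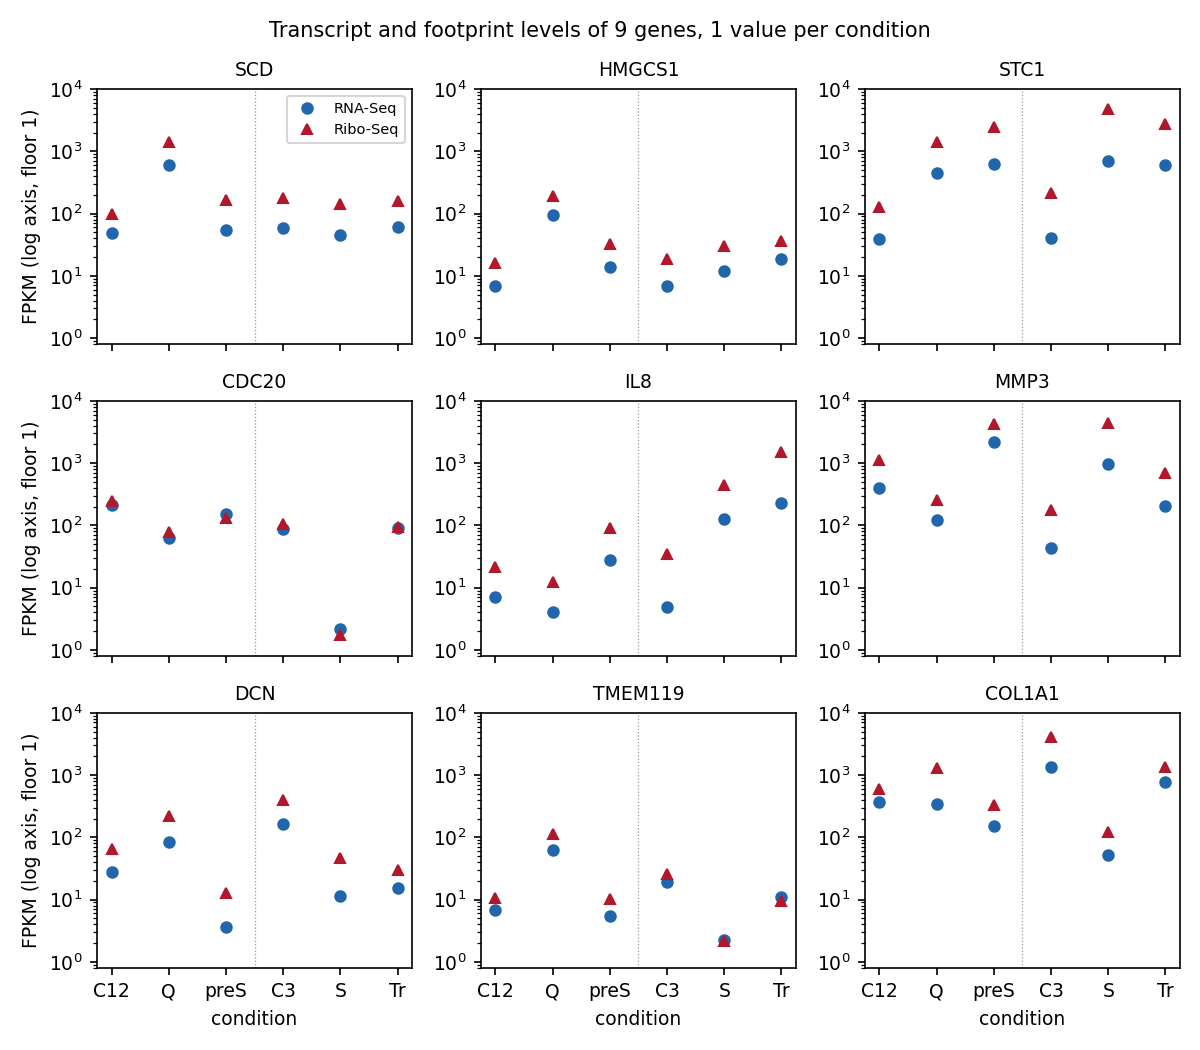
RNA-Seq (circles) and Ribo-Seq (triangles) FPKM on a log axis with a floor of 1 for 9 genes in C12, Q and preS (left of the dotted line) and C3, S and Tr (right), 1 value per condition. SCD and HMGCS1 are highest in Q, STC1 is high in Q and in S, CDC20 is lowest in S, IL8 and MMP3 rise from C3 to S, and DCN, TMEM119 and COL1A1 drop from C3 to S.

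Ribosome footprints kept the classes in part. In Ribo-Seq 7998 genes passed the level filter, of which 7.43% rose and 7.7% fell in quiescence and 10.6% rose and 16% fell in senescence. The difference between the arrests correlated between RNA-Seq and Ribo-Seq with an r of 0.79 across 7529 genes, again a description. Of the 136 genes lower in both arrests in RNA-Seq that were measured here, 135 were lower in both in footprints, with medians of -1.19 and -3.37, and 93 passed 2-fold in both, as 2.96% of all genes did in footprints. Of the 47 that rose in quiescence and fell in senescence, all 47 kept both signs and 31 passed (1.38% of all genes). Of the 77 that rose in quiescence alone, 51 had the same class in Ribo-Seq (3.01% of all genes). Of the 16 that fell in quiescence alone, 5 had the same class (2.09% of all genes), and 7 rose in senescence in footprints. Among genes particular to senescence, 118 of 284 higher ones and 203 of 352 lower ones had the same class in footprints, beside 5.2% and 6.69% of all genes.

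**Figure D4:**
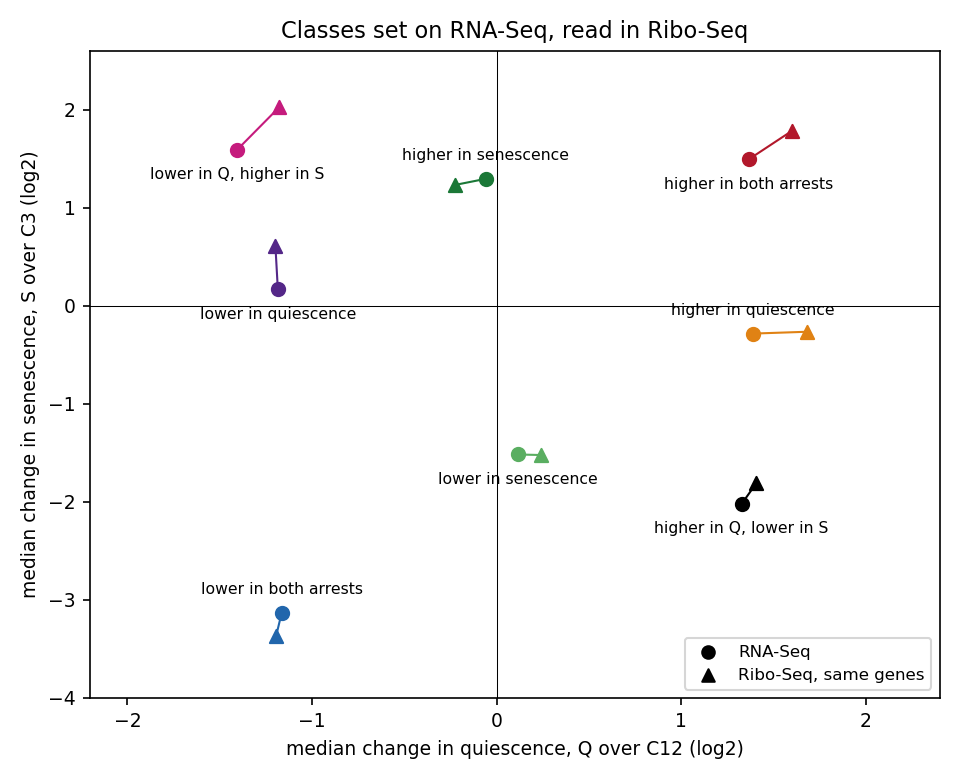
Median log2 change in quiescence (horizontal) and senescence (vertical) of the 8 gene classes set on RNA-Seq, in RNA-Seq (circles) and in Ribo-Seq for the same genes (triangles), joined by lines. The median of every class stays in its own region of the plane, and the genes lower in both arrests sit at -1.16 and -3.13 in RNA-Seq and at -1.19 and -3.37 in Ribo-Seq.

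Set on footprints alone, 365 genes were shared (4.56%), 408 particular to quiescence (5.1%), 951 particular to senescence (11.9%) and 149 opposite (1.86%). SCD footprints were at 97.8 in C12 and 1424 in Q, and 178 in C3 and 145 in S FPKM and those of STC1 at 129 in C12 and 1406 in Q, and 209.9 in C3 and 4720.1 in S. FABP3, a fatty acid carrier, had the largest difference among the genes higher in quiescence alone, with 1 in C12 and 68.8 in Q, and 11.2 in C3 and 9.95 in S, yet its transcript had also risen in senescence, at 1 in C12 and 33.9 in Q, and 3.21 in C3 and 9.48 in S. Its class in footprints rested on C3, since against C12, which was at the floor, the footprints rose in senescence too. COL1A1 footprints were at 588 in C12 and 1283 in Q, and 4134 in C3 and 123 in S, so that in footprints it rose in quiescence as well as falling in senescence. Of 36 collagens and matrix genes, 12 rose in quiescence and 21 fell in senescence in Ribo-Seq, and 11 did both. Against C12, where 22.6% of all genes fell and 17.5% rose in senescence, 9 of the 36 fell and 8 rose, with a median of -0.31 in place of -1.40. ANKRD1, a muscle and stress-responsive nuclear protein, fell in quiescence and rose in senescence with 10.1 in C12 and 1 in Q, and 3.79 in C3 and 38.6 in S, and BDNF with 47.5 in C12 and 11.6 in Q, and 24.99 in C3 and 97.1 in S. Of 37 lysosomal genes, 11 rose in quiescence and 23 in senescence in footprints, with medians of 0.55 and 1.21. When S was read against C12, 335 of the 365 shared genes kept their class, 159 of the 408 particular to quiescence, 664 of the 951 particular to senescence and 79 of the 149 opposite ones.

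Translation efficiency, the footprint level relative to the transcript level, gave classes that leaned on the control. In TE 7406 genes were measured, with 1.93% higher and 3.16% lower in quiescence and 2.39% higher and 5.91% lower in senescence. Shared changes numbered 45 (0.608%), quiescence-particular 155 (2.09%), senescence-particular 318 (4.29%) and opposite 18 (0.243%). With C12 as control 30, 42, 131 and 0 of these kept their class. Of the 83 genes (1.12%) whose TE rose in quiescence alone, 79 had a higher TE in C3 than in C12, as did 3830 of all 7406 genes. The rule of the class favours genes low in C12 or high in C3, so part of this count is built in.

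The ribosomal proteins were the clearest group in TE. Their transcripts were even, with medians of 0.07 in quiescence and 0.12 in senescence and none of 77 past 2-fold in either, though 5 rose in senescence against C12. Their TE was lower in all 77 in both arrests, though in 74 of the 77 when S was read against C12. In quiescence 49 of the 77 fell past 2-fold (median -1.11), and in senescence 16 (median -0.65, and -0.62 against C12, with 19 past 2-fold, where 8.71% of all genes fell). The median was -0.61 in preS and -0.03 in Tr, beside all-gene medians of -0.07 in quiescence and -0.06 in senescence. RPS12, of the small subunit, had RNA-Seq levels of 1082 in C12 and 1167 in Q, and 888 in C3 and 952 in S FPKM and footprints of 594 in C12 and 211 in Q, and 943 in C3 and 358 in S. Its TE changed by -1.60 in quiescence and -1.5 in senescence, and by -0.55 against C12. RPL34, of the large subunit, changed by -1.45 and -0.41, and RPL22 by -1.11 and -1.08 (-0.43 against C12). RPS23 changed by -1.64 and -0.99. Many ribosomal protein genes have processed pseudogenes, and with unique mapping only, reads they share are lost, so their levels are uncertain while the comparison between columns uses one rule throughout.

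Other mRNAs with TOP tracts, such as elongation factors, moved less. Of 24, 7 fell in TE in quiescence and 1 in senescence, with medians of -0.69 and -0.18. EEF1A1, which brings aminoacyl-tRNA to the ribosome, changed by -1.05 and -0.19, EEF2, the translocase, by -0.64 and 0.01, and TPT1, the translationally controlled tumour protein, by -1.46 and -0.20. EIF4B, an initiation factor, changed by -1.23 and -0.03. For these 4 the lowering in quiescence was larger than in senescence. The pyrimidine start was searched as a C followed by pyrimidines in a run of at least 5, beginning within 5 bases of the annotated start on the strand of the gene, since the annotated start and the used one can differ by a few bases. It was present in 30 of 62 ribosomal protein promoters (48.4%), in 5 of 18 promoters of the other TOP list (27.8%), in 10 of 32 promoters of the genes whose TE fell in both arrests (37 genes, 0.5%) and in 15.5% of all promoters. The starts of 3 small and large subunit genes are shown with the run in capitals, at chr6:132814568-132814597 (plus), chr1:6199570-6199599 (minus) and chr5:82278330-82278359 (minus).
RPS12: CCTCTTTCCCTgccgccgccgagtcgcgcg
RPL22: CCTCCCTTTCTaactccgctgccgccatgg
RPS23: CTTCTCTCTTTCgctcaggcccgtggcgcc

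**Figure D5:**
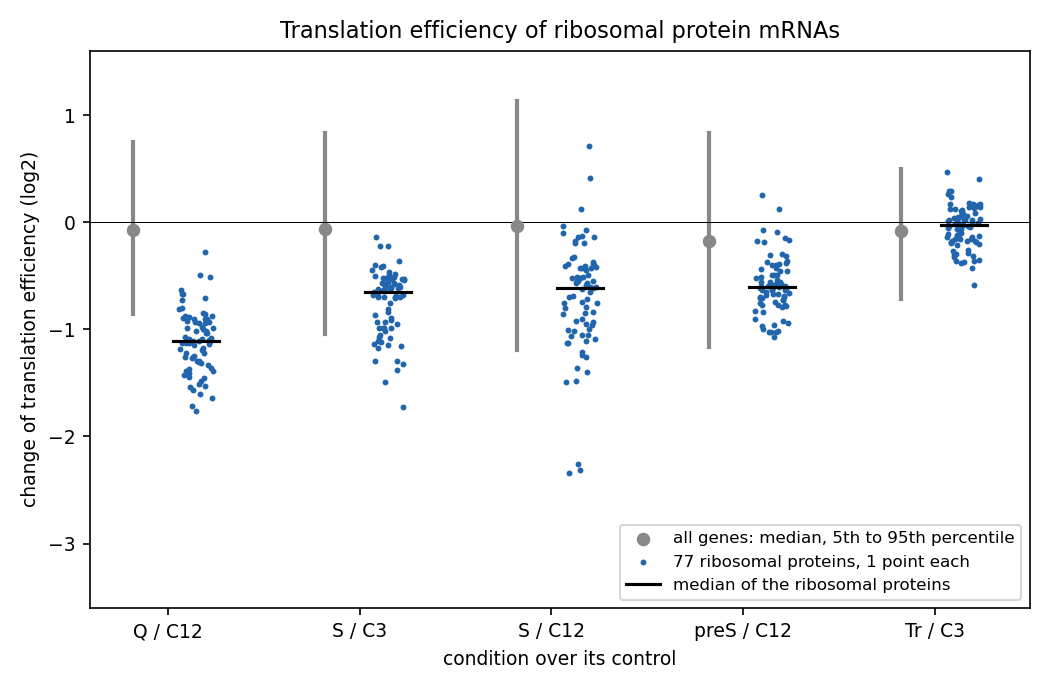
Change of translation efficiency (log2) of 77 ribosomal protein mRNAs (blue points, black bar at their median) beside all genes (grey, median and 5th to 95th percentile) for Q over C12, S over C3, S over C12, preS over C12 and Tr over C3. The ribosomal protein medians are -1.11 in Q, -0.65 in S over C3, -0.62 in S over C12, -0.61 in preS and -0.03 in Tr.

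Of the 5 genes that led the TE decreases particular to senescence, 4 were histone genes. HIST1H1C, a linker histone, was at 19.96 in C12 and 8.93 in Q, and 10.98 in C3 and 88.2 in S FPKM in RNA-Seq and 816 in C12 and 364 in Q, and 645 in C3 and 82.2 in S in Ribo-Seq. Its transcript value rose while its footprints fell, and its TE changed by -0.002 in quiescence and -5.98 in senescence. HIST1H2BK went the same way, at 25.8 in C12 and 24.03 in Q, and 39.7 in C3 and 215 in S in RNA-Seq and 156 in C12 and 130.5 in Q, and 376 in C3 and 99.5 in S in Ribo-Seq (footprints -0.65 against C12), and HIST1H2BD and HIST1H2BJ changed in TE by -5.74 and -5.61 in senescence. Histone messages mostly lack a poly(A) tail, the RNA-Seq libraries were selected for poly(A), and histone copies are alike in sequence, so RNA-Seq measures only the polyadenylated share of these genes. The part of polyadenylation in these values was not tested.

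CDKN2A also split by layer. Its footprints were at 13 in C12 and 33.05 in Q, and 8.92 in C3 and 6.33 in S FPKM, rising in quiescence, and its TE changed by 0.51 in quiescence and -2.54 in senescence (-1.74 against C12). The CDKN2A locus encodes 2 proteins in different frames, and the table holds 1 transcript of it. SPTAN1, a spectrin of the membrane skeleton, was among the 8 genes (0.108%) whose TE rose in both arrests. SPTAN1 was even in RNA-Seq, at 81.97 in C12 and 93.5 in Q, and 88.8 in C3 and 89.2 in S, and its footprints were at 47.8 in C12 and 177 in Q, and 63.1 in C3 and 223 in S. CES2, a carboxylesterase, was among the genes whose TE rose in senescence alone, by 2.28 beside -0.12 in quiescence. SKA2, a spindle protein, and CD58, an adhesion ligand of T cells, were among those whose TE fell in quiescence alone, at -2.57 and -2.14.

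Several lists had few genes past 2-fold. None of 31 proteasome genes passed 2-fold in quiescence and 1 rose in senescence (medians -0.23 and 0.26), although 30 of the 31 had negative changes in quiescence and 26 positive ones in senescence. The proteasome median in senescence was 0.04 against C12. None of 29 translation initiation genes passed in either (-0.23 and 0.24), with 23 negative in quiescence and 22 positive in senescence, but the senescence median was -0.16 against C12, where 3 rose and 1 fell. Of 18 endoplasmic reticulum chaperone and stress genes 1 rose in senescence (-0.04 and 0.17). Of 14 NRF2 targets 1 rose in senescence (0.01 and 0.33), while against C12 none rose and 4 fell, with a median of -0.31. Of 20 glycolysis genes 2 rose in quiescence and 2 fell in senescence (0.10 and 0.01), ALDOC, a brain-type aldolase, doing both at 10.1 in C12 and 44.2 in Q, and 20.1 in C3 and 8.69 in S FPKM. Against C12 ALDOC changed by -0.22 in senescence, short of 2-fold, and 4 genes of the list fell. Of 8 immediate early genes 1 rose in quiescence (0.16 and -0.28), and EGR1, MYC and FOSL1 were short of 2-fold in both arrests, FOSL1 with -1.40 in senescence against C12.

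The growth-signal lists gave mixed counts. Of 18 ERK feedback and target genes 5 rose in senescence, 1 rose and 1 fell in quiescence, and the median in Tr was 1.16. Against C12, 5 rose and 4 fell in senescence. DUSP6, a phosphatase that ERK induces against itself, was at 20.8 in C12 and 40.7 in Q, and 29.2 in C3 and 54.2 in S FPKM, just short of 2-fold in both arrests (but 1.39 in senescence against C12), and EREG, the growth factor epiregulin, at 7.56 in C12 and 6.84 in Q, and 8.24 in C3 and 28.4 in S. Of 16 genes known from FOXO activity or serum withdrawal 3 rose in quiescence, and 1 rose and 4 fell in senescence (3 and 4 against C12). Of 14 brakes and partners of mTOR 1 rose in quiescence and 3 in senescence (1 rose and 1 fell against C12), among them DDIT4L, at 2.46 in C12 and 3.27 in Q, and 9.59 in C3 and 62.6 in S. Of 18 ATF4 targets 2 rose in quiescence, and 5 rose and 1 fell in senescence (0.42 and 0.45, but -0.31 in senescence against C12, where 1 rose and 3 fell). Of 8 YAP targets 3 fell in quiescence and 4 in senescence, CYR61, a matrix-associated signalling protein, in both at 387 in C12 and 163 in Q, and 349 in C3 and 137 in S. Of 10 contractile genes 3 fell in each arrest (-0.57 and -0.62), but the senescence median was 0.56 against C12. Of 8 plasminogen system and serpin genes 2 rose in quiescence, and 4 rose and 2 fell in senescence. Of 8 metalloproteases and inhibitors 2 rose and 1 fell in quiescence, and 2 rose and 2 fell in senescence (medians 0.33 and -0.06), while against C12, 3 rose and none fell, with a median of 0.88. Of 6 IGF binding proteins 1 rose in quiescence and 3 fell in senescence (0.44 and -1.45, and -0.16 against C12). Of 7 complement genes 3 rose in quiescence, and 1 rose and 2 fell in senescence (0.91 and 0.30). Against C12, 5 rose and none fell in senescence, with a median of 1.80, so the order of the arrests turned with the control. The cyclin D list held 4 genes with medians of -0.35 and 0.07, and the 3 RAS genes did not pass 2-fold in either arrest.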

How the data were processed

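RNA-Seq (poly(A)-selected) and Ribo-Seq libraries of hTERT-immortalized BJ fibroblasts were analysed from a table of FPKM values that the authors deposited. The authors mapped reads with Bowtie (hg19 per the labels) to 1 protein-coding transcript per gene, kept unique hits, took RNA-Seq FPKM over the transcript and Ribo-Seq FPKM over the coding sequence, and set values below 1 to 1. The C12 and Q columns, and the preS column of RNA-Seq, were combined by the authors. The spread between their libraries is thus not seen, and the FPKM values carry no read depth. The authors list read totals for each library, which were not used here. The design of this comparison foresaw limma if single columns were present. As they are not, no test was run.

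From these values log2 changes (floor 1) were computed for Q over C12 and S over C3, and for S over C12 as a check, and TE as log2 Ribo-Seq minus log2 RNA-Seq. Genes needed a mean log2 FPKM of at least 2 over the 4 columns of a layer, and for TE in both layers with no value at the floor. Calls used 2-fold, and classes followed the rules given above. The genes named are the 5 leading ones of each class and layer, up to 4 leading genes by each of 2 measures from each gene list, and a set of well-known markers. CDKN2B, CDKN1C, SESN3 and CCND2 of that set are not among the table's genes. Some genes that the rule names are not reported here. Members, lists and markers were chosen with earlier results of these data known. Alternatives were log2(FPKM + 1), centring on the median, no level filter or one of 3, S over C12, and the condition entries of the contradictory libraries. The classifier was tested on simulated data. Promoter windows came from RefSeq (GRCh38.p14), matched by symbol or synonym, and coordinates are of that build, not of hg19. Python 3.11.15 with numpy 2.4.6, pandas 2.3.3 and matplotlib 3.10.9 was used.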

Additional observations from a re-analysis of the deposited data

How the results depend on the processing

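No paired analysis was possible because the columns carry no replicate numbers, and no library could be left out because each column is a single value. Centring the changes on their median moved no class count past 1.5 times. Without a level filter the counts came to 99 opposite and 169 quiescence-particular genes in RNA-Seq, 231 and 622 in Ribo-Seq, and 31 and 270 in TE, since more genes entered. With a mean log2 FPKM of at least 3 they came to 36 opposite and 67 quiescence-particular genes in RNA-Seq, 87 opposite genes in Ribo-Seq, and 6 opposite, 68 quiescence-particular and 29 shared genes in TE. With log2(FPKM + 1) there were 9 opposite and 25 shared genes in TE. With S over C12, Ribo-Seq gave 241 quiescence-particular and 599 shared genes, and TE gave 5 opposite, 65 quiescence-particular, 485 senescence-particular and 157 shared genes. With the condition entries in place of the titles, Ribo-Seq gave 365 opposite and 149 shared genes, and TE 80 opposite, 2524 senescence-particular and 79 shared genes. The other class counts stayed within 1.5 times under these settings. When S was read against C12, the difference of the changes turned its sign or became 0 in 60 of 440 values of single genes and in 25 of 114 list medians. Among the 260 values of single genes with a difference of at least 1 it did so in 13. In RNA-Seq it became 0.00 for BOP1, 0.13 for CDKN2A, -0.14 for GREM1, -0.16 for HBP1, -1.30 for KRT19, -1.22 for SERPING1 and -0.50 for TIMP1. In Ribo-Seq it became 0.12 for EBNA1BP2, -0.55 for KRT19, -1.23 for SERPING1, -0.12 for TGFBI and -0.030 for TIMP1, and in TE -0.066 for ALG3. The cause was not tested. As the FPKM values carry no read depth, a value near the floor cannot be told from counting noise.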
